A study of Homo sapiens with 12 samples.

Results

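The taxanes cabazitaxel and docetaxel were compared with each other in LNCaP, a human prostate cancer line that responds to androgens and here carried the control plasmid MSCV-LMP. Cells were kept in serum treated with charcoal and dextran, which removes steroid hormones, or in full serum. Treatment lasted 16 h, with either taxane at 1 nM or with its ethanol vehicle. The comparison used the 4 cabazitaxel and the 4 docetaxel arrays, 2 in each serum, chosen by their labels, which is 8 of the 12 arrays of the series. The 4 vehicle arrays added to the estimate of the spread and gave the background for each drug. All groups shared the line and the plasmid. Whether duplicates came from separate cultures is not given in the sources used here, so the tests cover the variation among these arrays, which may be technical.

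Taxanes bind beta-tubulin inside the microtubule, stabilise it and hold dividing cells in mitosis. Cabazitaxel has the taxane skeleton of docetaxel with a pair of hydroxyl groups on the core replaced by methoxy groups, and it is known as a poorer substrate of the drug efflux pump P-glycoprotein. Both drugs are used in prostate cancer, cabazitaxel after docetaxel. In prostate cells microtubules also carry the androgen receptor towards the nucleus, which is why serum with and without androgens is a common setting for these drugs.

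Values are log2 of the deposited normalised array intensities, and a difference is cabazitaxel minus docetaxel on that scale, so that 1 means 2-fold. The 8 taxane arrays kept the identity of the line. The luminal prostate genes FOLH1 (9.69 to 10.47), KLK3 (8.90 to 10.24), KLK4 (7.92 to 8.47) and EPCAM (7.66 to 7.95) were high, while the luminal keratin KRT19 lay at 4.60 to 4.92. Of other cell types, 5 of 7 basal, 4 of 6 fibroblast, 4 of 7 leukocyte and 10 of 15 neuroendocrine markers on the array passed the filter on low values. The basal marker KRT5 (4.29 to 4.35), the fibroblast markers DCN and LUM (4.17 to 4.45) and the leukocyte markers CD14, CD163 and LYZ (4.25 to 4.45) did not. The highest were NGFR among basal (4.84 to 5.08), CD68 among leukocyte (5.10 to 5.30) and, after FN1, VIM among fibroblast markers (5.02 to 5.24). The luminal list (13 of its 22 genes on the array) summed to 2926 to 3221 intensity units with cabazitaxel and 2926 to 3130 with docetaxel in charcoal serum, and to 3709 to 3881 and 3676 to 3902 in full serum. FN1, also used as a fibroblast marker, was expressed in these arrays (8.62 to 9.25), as was SYT4 of the neuroendocrine list (10.71 to 10.98). Tubulin genes and drug transporters were not analysed here.

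No gene differed between the drugs at an adjusted p under 0.05. With limma and Benjamini-Hochberg adjustment over 11105 genes, 0 passed (0%) in the mean of both sera, in charcoal serum, in full serum and in the difference between the sera. Unadjusted p-values under 0.05 were held by 506 genes (4.56%) in the mean of both sera, 179 higher (1.61%) and 327 lower (2.94%) with cabazitaxel, by 601 (5.41%) in charcoal serum, by 314 (2.83%) in full serum and by 402 (3.62%) between the sera. The t-test that the study's methods name gave 0 genes after adjustment. Unadjusted it gave 554 in charcoal serum and 455 in full serum. With the sera pooled it gave 500, without a serum term, so that the spread between the sera entered its error, unlike in the limma mean of both sera. The same limma fit did make calls on a contrast of the same size in the same 8 arrays: 119 genes (1.07%) differed between full and charcoal serum, 4 arrays against 4. With 2 vehicle arrays against 2 it called 44 genes (0.396%) between the sera. Among all 25724 clusters past the filter, 1 without a gene symbol was called in charcoal serum (0.00389%) and between the sera (0.00389%). TARP, an androgen-regulated transcript, was higher in full serum by 1.99 (SE 0.0716, limma adjusted p = 1.49e-07) across the taxane arrays.

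The size of any difference could be bounded for most genes. In the mean of both sera the 95% interval of the difference lay within 0.5 on either side of 0, a 1.41-fold difference, for 10998 of 11105 genes (99.04%). It lay within 1, a 2-fold difference, for 11102, the exceptions being LOC100190986, MIR644A and MIR103A2. Within 1 serum the intervals were wider and lay within 0.5 for 10404 genes in charcoal serum and 10586 in full serum. For the difference between the sera this held for 8421 genes. The deposited values sit on a floor, so differences of weakly expressed genes are compressed: with an assumed background of 16 intensity units subtracted, 8448 genes lay within 0.5 and 10990 within 1. Whole arrays were also compared in pairs. Over genes, the SD of the difference between a cabazitaxel and a docetaxel array was 0.151 to 0.203 in charcoal serum and 0.137 to 0.145 in full serum. Between replicates, vehicle included, it was 0.163 to 0.180 and 0.141 to 0.184. For the cabazitaxel and docetaxel replicates it was 0.180 and 0.163 in charcoal serum and 0.147 and 0.141 in full serum.

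The direction of the small differences moved with the level of the gene. Of all genes tested, 55.4% had a lower estimate with cabazitaxel, with a median difference of -0.0098. Split into 5 equal bins by mean level, the median went from 0.010 in the lowest bin to -0.040 in the highest, and the share with a lower estimate from 41.7% to 71.2%. In the 2 highest bins together 68.4% of 4442 genes had a lower estimate, with a median of -0.036. This depended on the scaling: after quantile normalization 50.3% of these genes had a lower estimate and their median was -0.00054. Among genes with an unadjusted p under 0.05 the share that was lower with cabazitaxel was 64.6%, against 50% with arrays centred on their medians and 46% after quantile normalization. Counts of genes in a list are therefore given beside this background.

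**Figure D1:**
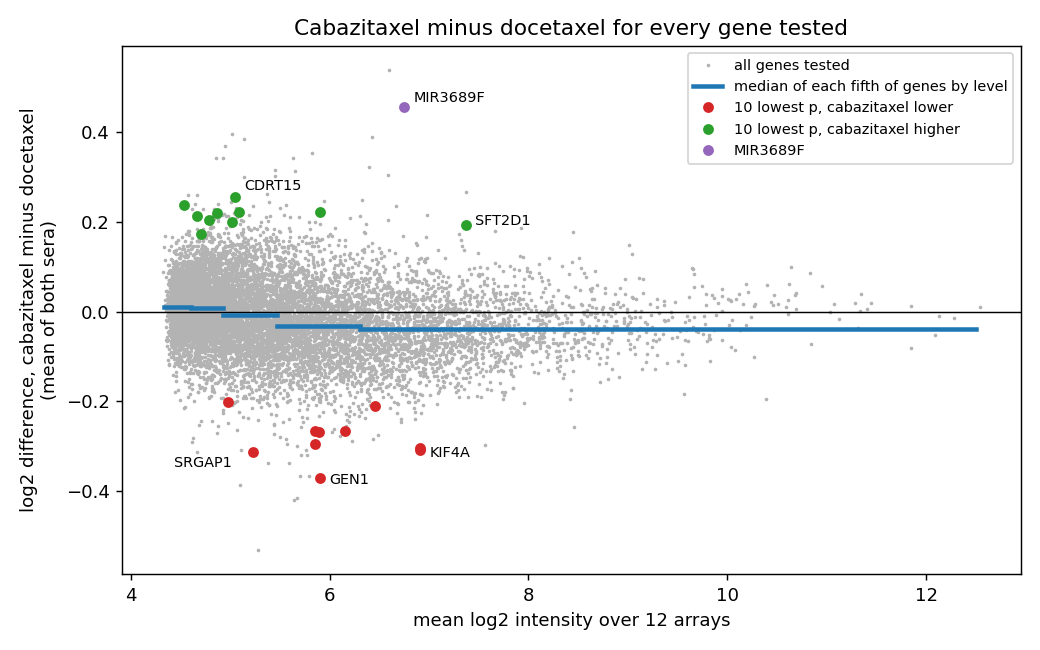
The log2 difference between cabazitaxel and docetaxel (mean of both sera, vertical) is plotted against the mean log2 intensity over 12 arrays (horizontal) for each gene tested, in grey. The blue bars, medians of 5 equal bins by level, fall from 0.010 to -0.040. Red and green points are the named genes with the smallest unadjusted p in each direction, and MIR3689F (purple) stands at 0.46.

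The smallest adjusted p in the mean of both sera, 0.244 by limma, belonged to the microRNA gene MIR3689F, which was singled out after its values were seen. Its levels in charcoal serum were 7.0 and 6.89 with cabazitaxel, 6.42 and 6.54 with docetaxel, and 6.97 and 6.87 with vehicle. In full serum they were 7.01 and 6.91 with cabazitaxel, 6.63 and 6.40 with docetaxel, and 6.73 and 6.64 with vehicle. All 4 cabazitaxel arrays thus lay above all 4 docetaxel arrays, with a difference of 0.46 (SE 0.0652, 95% interval 0.313 to 0.599), near that in charcoal serum (0.47) and full serum (0.45). Against vehicle, docetaxel stood at -0.30 and cabazitaxel at 0.15, neither past the threshold. MIR3689F lies in a tandem family on chromosome 9 (GRCh38.p14), whose mature sequences are shown from RefSeq because they bear on what a probe set can tell apart. The seed, bases 2 to 8 from the 5′ end, is in capitals. The first pair below shares the seed GUGAUAU, and the second of them is also the mature form listed for MIR3689B (5p) and MIR3689E. Relative to miR-3689f, counted from its 5′ end, it carries G10A and C13G.
hsa-miR-3689f (chr9:134850783-134850804, minus strand): uGUGAUAUcgugcuuccuggga
hsa-miR-3689a-5p (chr9:134849534-134849555, minus strand): uGUGAUAUcaugguuccuggga
hsa-miR-3689a-3p (chr9:134849494-134849515, minus strand): cUGGGAGGugugauaucguggu
hsa-miR-3689d (chr9:134849660-134849681, minus strand): gGGAGGUGugaucucacacucg

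The other family members tested had smaller or opposite estimates. The difference was -0.043 (95% interval -0.482 to 0.396) for MIR3689A and -0.19 (-0.589 to 0.206) for MIR3689B, both of which hold a mature arm with the same seed. It was 0.15 for MIR3689D1 and 0.17 for MIR3689D2, whose mature form has the seed GGAGGUG. In these 4 genes the 8 taxane arrays overlapped between the drugs, whereas they did not in MIR3689F. The array measures amplified cDNA of whole transcripts rather than mature microRNA, and signal from near-identical copies cannot be assigned with certainty, so MIR3689F is the name of the probe set here.

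Among protein-coding genes the lowest unadjusted p-values with a lower level under cabazitaxel included 2 genes of chromosome segregation and repair. KIF4A, a chromosome-bound kinesin that shapes the central spindle and condenses chromosomes, measured 6.61 and 6.74 with cabazitaxel and 7.21 and 7.05 with docetaxel in charcoal serum. In full serum it measured 6.73 and 6.94 with cabazitaxel and 7.06 and 6.94 with docetaxel, and vehicle arrays lay between 6.83 and 7.01 over both sera. The difference was -0.45 in charcoal serum and -0.16 in full serum, which gave a mean of -0.31 (SE 0.0721, limma adjusted p = 0.958). GEN1, a nuclease that resolves Holliday junctions in recombination, measured 5.41 and 5.80 with cabazitaxel against 6.20 and 6.03 with docetaxel in charcoal serum. In full serum it measured 5.91 and 5.65 against 5.98 and 6.06. Its mean difference of -0.37 (SE 0.0911) was the largest in size among the named genes with a lower estimate, and the same adjusted p of 0.958 applied.

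CADPS2, which primes vesicles for secretion, measured 6.02 and 6.12 with cabazitaxel and 6.44 and 6.42 with docetaxel in charcoal serum, and 6.04 and 6.10 against 6.25 and 6.24 in full serum. SOCS6, a suppressor of cytokine and receptor kinase signalling, measured 5.93 and 5.89 against 6.12 and 6.10, and 5.59 and 5.68 against 5.98 and 5.96. In both genes, as in KIF4A and GEN1, no cabazitaxel array lay above a docetaxel array of either serum. Such complete separation of 8 arrays with cabazitaxel lower was found in 152 of 11105 genes (1.37%), and with cabazitaxel higher in 144 (1.3%). The mean differences were -0.27 for both genes, and against vehicle docetaxel stood at 0.28 for CADPS2 and 0.18 for SOCS6, with cabazitaxel at 0.016 and -0.086.

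The other named genes with lower estimates were SRGAP1 (-0.31), of Slit-Robo signalling, the zinc finger genes ZKSCAN1 (-0.31), ZNF445 (-0.29) and ZNF814 (-0.27), the cyclin-dependent kinase CDK14 (-0.21) and the ceramide synthase CERS5 (-0.20). Each separated the drugs within both sera, as 411 of all genes did with cabazitaxel lower (3.7%) and 268 with cabazitaxel higher (2.41%). A further transcript cluster of ZNF445 gave 0.0031, so its 2 probe sets disagreed. None of the 10 passed the threshold, with limma adjusted p-values of 0.958.

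Among the 10 genes named in each direction, small RNAs left out, the largest higher estimate with cabazitaxel was smaller in size than the largest lower one. MIR3689F, a small RNA, stood at 0.46. Of the 10 named with higher estimates, 9 lay in the 4 lower of the 5 equal bins by level, near the share of all genes in those bins. SFT2D1, a membrane protein of vesicle transport, was the exception. It measured 7.40 and 7.50 with cabazitaxel and 7.22 and 7.19 with docetaxel in charcoal serum, and 7.49 and 7.53 against 7.37 and 7.35 in full serum, a difference of 0.19 (SE 0.0496). RALB, a small GTPase of exocytosis and cell migration, measured 6.12 and 5.93 against 5.92 and 5.91, and 5.99 and 6.0 against 5.74 and 5.59. Its mean difference was 0.22 (SE 0.0651), and most of it came from full serum (0.33). GSTT2, a glutathione transferase, measured 5.07 and 5.08 against 4.75 and 4.71 in charcoal serum and 4.92 and 4.88 against 4.82 and 4.80 in full serum. The remaining named genes were CDRT15 (0.26), CDRT15P2 (0.24), STPG3 (0.22), IGLL1 (0.21), TMEM61 (0.20), the orexin precursor HCRT (0.20) and the inositol phosphatase INPP5J (0.17). In charcoal and full serum these stood at 0.47 and 0.041 (CDRT15), 0.16 and 0.31 (CDRT15P2), 0.24 and 0.20 (STPG3) and 0.32 and 0.11 (IGLL1). TMEM61 stood at 0.30 and 0.11, HCRT at 0.22 and 0.18 and INPP5J at 0.26 and 0.089. All 10 genes had a limma adjusted p of 0.958. GSTT2 and CDRT15 have near-identical copies in the genome, so their signal cannot be assigned to a single gene with certainty.

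**Figure D2:**
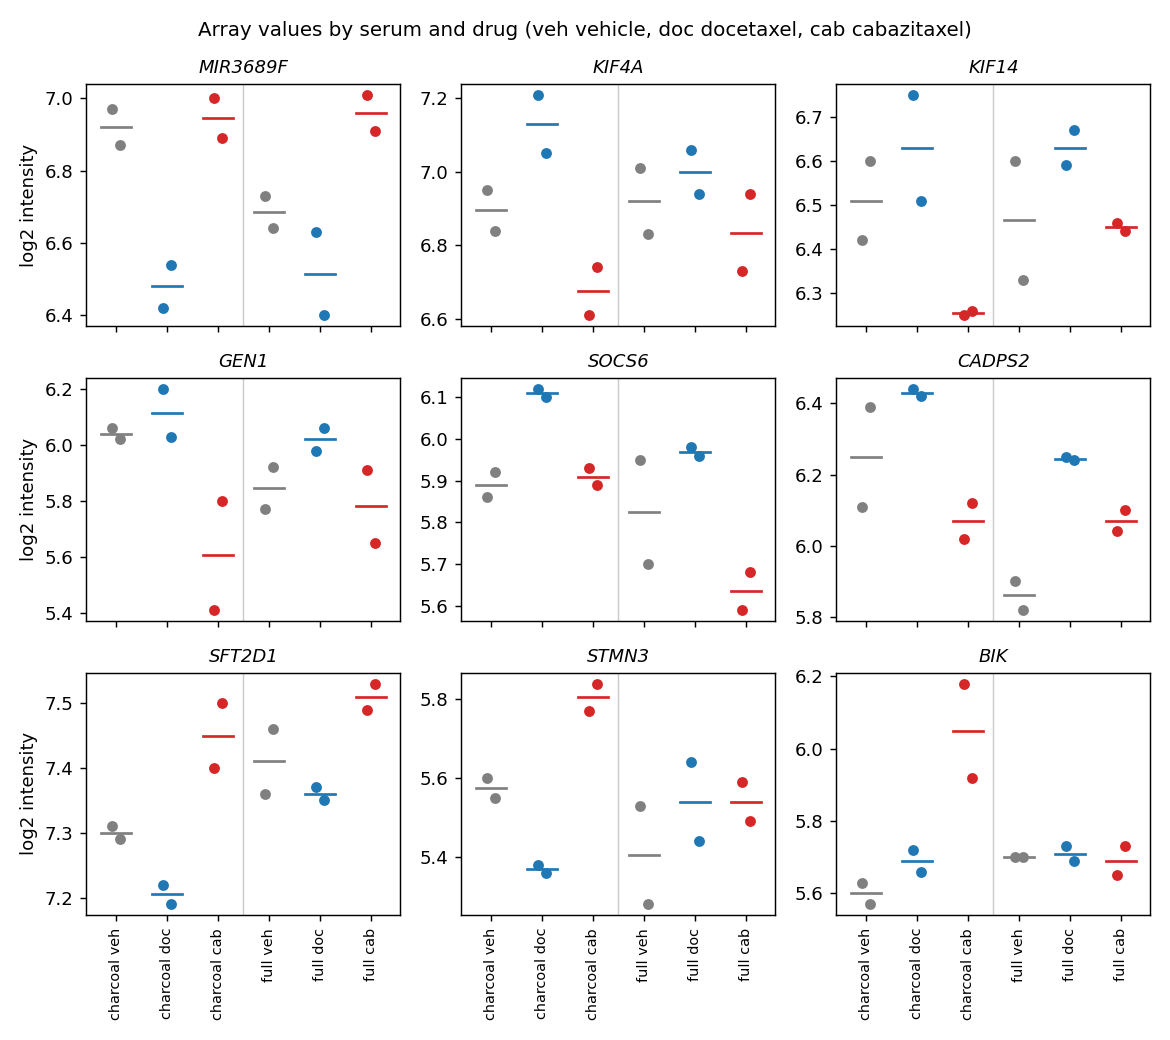
Each point is the log2 intensity of 1 array (vertical), by serum and treatment (horizontal), and each bar is the mean of the 2 arrays of a group. MIR3689F and SFT2D1 lie higher and KIF4A, KIF14, GEN1, SOCS6 and CADPS2 lie lower with cabazitaxel in both sera. STMN3 and BIK lie higher with cabazitaxel in charcoal serum, and in full serum their differences were -0.0034 and -0.025.

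Because both drugs act on microtubules, the genes that move along, bind, fold or modify them were described as groups. Of 41 kinesin genes 38 were tested, and 27 (71.1%) had a lower estimate with cabazitaxel, with a median of -0.054. This share is above the 55.4% of all genes and near the 68.4% of the 2 highest bins of level. Only 21 of the 38 lay in those bins, and in the lower bins the shares were 41.7%, 44.7% and 53.8%. Of these kinesins, 3 had an unadjusted p under 0.05: KIF4A, KIF14 (-0.28), which acts in cytokinesis, and KIF2A (-0.19), which takes tubulin off microtubule ends. KIF14 measured 6.25 and 6.26 with cabazitaxel and 6.75 and 6.51 with docetaxel in charcoal serum, and 6.46 and 6.44 against 6.59 and 6.67 in full serum. KIF11, the spindle motor that is itself a drug target, stood at -0.13 (95% interval -0.277 to 0.024). All 38 intervals lay within 0.5 of 0, and the median kinesin kept its sign after quantile normalization (-0.036).

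Microtubule-associated proteins were balanced, with 14 of 31 tested genes lower and a median of 0.00068, whose sign turned in several alternatives. EML4, a microtubule-stabilising protein, stood at -0.22, NUMA1, which anchors spindle poles, at -0.16, and STMN3, a stathmin that sequesters tubulin, at 0.22. These 3 had unadjusted p-values under 0.05. In charcoal and full serum EML4 stood at -0.25 and -0.18, NUMA1 at -0.18 and -0.15 and STMN3 at 0.43 and -0.0034. MAPT, the gene of tau, differed by 0.020 (95% interval -0.135 to 0.174) and STMN1 by 0.047 (-0.0742 to 0.168). MAP1B, a microtubule-binding protein best known from neurons, varied more among arrays, from 6.14 to 6.84 with the taxanes, and differed by -0.11 (-0.374 to 0.146). Of the tubulin folding and modification genes 9 of 17 (52.9%) had a lower estimate, and of the dynein and dynactin genes 7 of 10 (70%), with medians of -0.0091 and -0.021. These shares stand beside 55.4% of all genes and 68.4% of the 2 highest bins of level, where 9 of the 17 and 8 of the 10 lay.

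Mitotic genes leaned lower with cabazitaxel by small amounts. Of 50 listed genes 41 were tested, and 38 of them (92.7%) had a lower estimate, against 68.4% of genes in the 2 highest bins of level, where 35 of the 41 lay. The median was -0.066 in the mean of both sera, -0.089 in charcoal serum and -0.054 in full serum, and 18 genes (43.9%) were lower in both sera, against 40% of genes in the 2 highest bins and 30.2% of all genes. No mitotic gene passed the threshold (limma, smallest adjusted p = 0.958), and 3 had an unadjusted p under 0.05. They were KNL1 (-0.23), the kinetochore scaffold, SGO1 (-0.21), which protects centromeric cohesion, and the kinase MELK (-0.14). In charcoal and full serum SGO1 stood at -0.033 and -0.38, KNL1 at -0.25 and -0.21 and MELK at -0.17 and -0.115. The mean over the 41 genes was 6.47 and 6.47 with cabazitaxel and 6.60 and 6.48 with docetaxel in charcoal serum, and 6.63 and 6.56 against 6.70 and 6.64 in full serum. The cabazitaxel arrays were the lower ones in each serum, by a margin smaller than the gap between the replicates of docetaxel. After quantile normalization 33 of the 41 had a lower estimate with a median of -0.031, and without the second charcoal cabazitaxel array 30 did, with a median of -0.053.

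The best-known genes of mitotic entry had small differences. CCNB1, the cyclin of mitotic entry, measured 8.72 and 8.86 with cabazitaxel and 8.77 and 8.72 with docetaxel in charcoal serum, and 8.80 and 8.81 against 8.97 and 8.75 in full serum, a difference of -0.0046 (95% interval -0.151 to 0.142). CCNB2 differed by -0.032 (-0.138 to 0.0753), the mitotic kinase PLK1 by -0.061 (-0.227 to 0.104) and the topoisomerase TOP2A by -0.066 (-0.208 to 0.0749). The proliferation marker MKI67 differed by -0.14, with the widest interval of these (-0.432 to 0.146). Its difference was -0.36 in charcoal serum and changed by 0.43 from charcoal to full serum. Arrays of the drugs overlapped over both sera in all 5 genes.

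KIF4A and CCNB2 belong to genes whose promoters carry the cell cycle homology region, CHR, through which they are expressed late in the cell cycle, usually beside CCAAT boxes. Their 150 bases before the RefSeq start site (GRCh38.p14) are shown as examples from the named genes of the motor and mitotic lists. Neither gene passed the threshold between the drugs, and the estimates of the 2 genes were not tested against each other. Capitals mark TTTGAA, the CHR letters, and CCAAT or its reverse complement ATTGG, searched on both strands.
KIF4A (chrX:70289954-70290103, plus strand): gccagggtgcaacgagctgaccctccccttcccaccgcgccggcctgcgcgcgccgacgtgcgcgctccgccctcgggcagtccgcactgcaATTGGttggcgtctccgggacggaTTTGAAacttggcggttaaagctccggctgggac
CCNB2 (chr15:59104996-59105145, plus strand): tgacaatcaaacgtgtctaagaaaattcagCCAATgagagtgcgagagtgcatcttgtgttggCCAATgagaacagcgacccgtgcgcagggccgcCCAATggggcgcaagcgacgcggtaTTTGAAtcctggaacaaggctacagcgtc

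In KIF4A the reversed CCAAT box begins 58 bases and TTTGAA 34 bases before the start, and in CCNB2 the CCAAT boxes begin at 120, 87 and 54 bases and TTTGAA at 29. In the 300-base RefSeq windows, from 250 bases before to 50 after the start, TTTGAA or TTCAAA was found for 20 of 33 tested mitotic genes with an entry (60.6%), against 1135 of 8504 tested genes (13.3%). CCAAT or ATTGG was found for 81.8% and 42.1%. Among kinesins these shares were 32.3% and 51.6% of 31 genes. A match of these letters describes the window and is no measure of binding.

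DNA repair genes had the lowest median of the lists, -0.086, with 17 of 21 tested genes (81%) lower with cabazitaxel and 14 (66.7%) lower in both sera. In the 2 highest bins of level, where 19 of the 21 lay, these shares were 68.4% and 40%. The mean over the 21 genes was 6.11 and 6.12 with cabazitaxel and 6.21 and 6.22 with docetaxel in charcoal serum, and 6.24 and 6.22 against 6.29 and 6.25 in full serum. The drugs did not overlap within either serum, by a wider margin in charcoal serum. PMS2, of mismatch repair, stood at -0.18 (SE 0.0645, limma adjusted p = 0.958). The median was -0.046 after quantile normalization, with 15 of 21 lower. Of the genes of DNA replication and entry into S phase 26 of 34 (76.5%) were lower, with a median of -0.037, near that of the 2 highest bins of level. After quantile normalization 18 of 34 were lower with a median of -0.0019, and without the second charcoal cabazitaxel array 21 were, with a median of -0.0099. MCM4, of the replicative helicase, stood at -0.17 and was the only member with an unadjusted p under 0.05.

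Some marker genes of replication, p53 and metal response are given with each drug's value against vehicle. The vehicle arrays are common to both drugs, so the values against vehicle are given side by side without a test of their likeness, and none passed the threshold. MCM10, which loads replication factors at origins, stood at -0.41 with cabazitaxel and -0.35 with docetaxel against vehicle, and the drugs differed by -0.058 (95% interval -0.241 to 0.126). WDR76, an S-phase gene, stood at -0.37 and -0.33, with a difference of -0.039 (-0.185 to 0.106). PCNA, the sliding clamp of DNA polymerase, stood at -0.21 and -0.21, with a difference of -0.0004 (-0.112 to 0.111). TP53INP1, a stress gene activated by p53, stood at 0.31 and 0.31, with a difference of -0.0028 (-0.156 to 0.151). MCM5, of the replicative helicase, stood at -0.45 and -0.28 with a difference of -0.17 (-0.403 to 0.0568). The metallothionein MT1G stood at 0.41 and 0.26. Its levels in charcoal serum were 7.65 and 7.68 with cabazitaxel and 7.43 and 7.33 with docetaxel. In full serum they were 7.31 and 7.41 against 7.38 and 7.33. The difference was 0.29 in charcoal serum, and the mean difference of both sera was 0.15 (95% interval -0.0056 to 0.296).

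**Figure D3:**
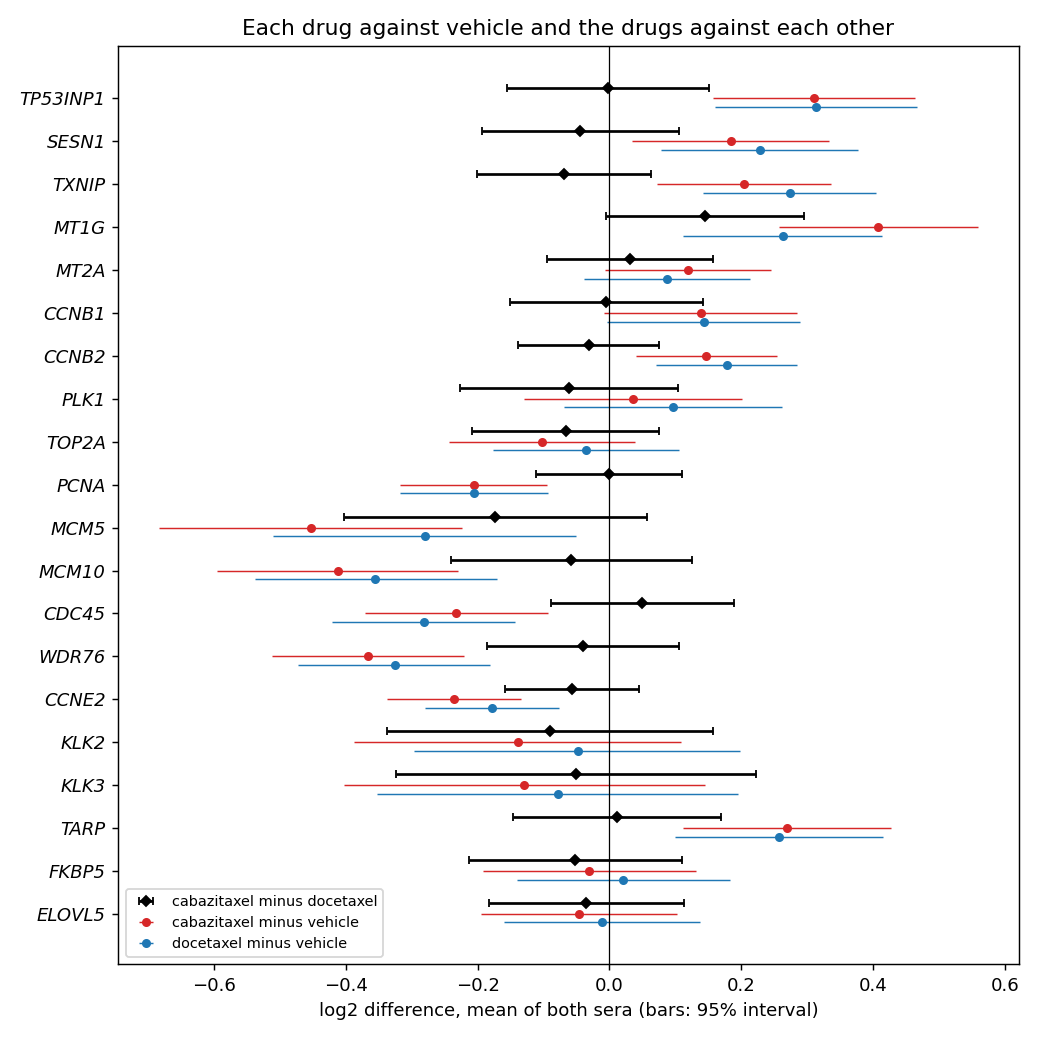
Points are log2 differences in the mean of both sera (horizontal) with 95% intervals for named genes (vertical): cabazitaxel minus docetaxel in black, each drug minus vehicle in red and blue. The black intervals all include 0, also where both drugs stood away from vehicle, as in TP53INP1 (0.31 and 0.31) and MCM10 (-0.41 and -0.35).

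Androgen receptor output showed no difference that passed the test. KLK3, which encodes prostate-specific antigen, measured 9.52 and 8.90 with cabazitaxel and 9.42 and 9.24 with docetaxel in charcoal serum, and 10.12 and 10.24 against 10.16 and 10.15 in full serum. It was higher in full serum with either drug, and the drugs differed by -0.051 (95% interval -0.324 to 0.223). KLK2 differed by -0.091 (-0.338 to 0.157), TARP by 0.012 (-0.146 to 0.169) and FKBP5, a chaperone of steroid receptors, by -0.052 (-0.213 to 0.11). Of the androgen-induced list 20 of 30 tested genes (66.7%) had a lower estimate, and 20 of the 30 lay in the 2 highest bins of level. The share was 68.4% in those bins and 55.4% over all genes. The median of the list was -0.017, which became 0.0025 after quantile normalization. The largest differences in that list were 0.21 for KRT8, a luminal keratin, and -0.21 for INSIG1, which restrains cholesterol synthesis. KRT8 stood at 0.12 in charcoal serum and 0.30 in full serum, and INSIG1 at -0.36 in full serum. Androgen receptor coregulators and chromatin modifiers had lower estimates in 31 of 40 genes (77.5%), with a median of -0.048, and 34 of the 40 lay in the 2 highest bins of level, where 68.4% of genes were lower. After quantile normalization 24 of 40 were lower, with a median of -0.015. Of the p53 targets 12 of 20 (60%) were lower, against 55.4% of all genes, with a median of -0.022.

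Metabolic and stress genes were described by the same counts, beside lower estimates in 55.4% of all genes and 68.4% of the 2 highest bins of level. Of the genes of cholesterol synthesis 12 of 18 (66.7%) had a lower estimate, near the share of those bins, where 14 of the 18 lay. Their median of -0.043 lay further from 0 in full serum (-0.091) than in charcoal serum (-0.013). HMGCS1, which makes the precursor of mevalonate, measured 6.23 and 6.19 with cabazitaxel and 6.39 and 6.32 with docetaxel in charcoal serum, and 6.17 and 6.27 against 6.32 and 6.28 in full serum, a difference of -0.11 (95% interval -0.236 to 0.0113). Heat shock and protein folding genes were lower in 12 of 17 (70.6%, median -0.042), and cytosolic ribosomal protein genes in 26 of 46 (56.5%, median -0.0079, of the opposite sign after quantile normalization). Higher estimates prevailed in oxidative phosphorylation, with 10 of 16 genes and a median of 0.025, in immediate early genes, with 14 of 23 and 0.024, and in metallothioneins and metal transport, with 7 of 9 and 0.032. The shares with a lower estimate were 37.5%, 39.1% and 22.2%. In the 2 highest bins lay 13 of the 16, 7 of the 23 and 6 of the 9. MT2A, the most widely expressed metallothionein, differed by 0.032 (-0.0939 to 0.158). Interferon response genes were split, 10 of 19 lower. None of these lists held a gene past the threshold.

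**Figure D4:**
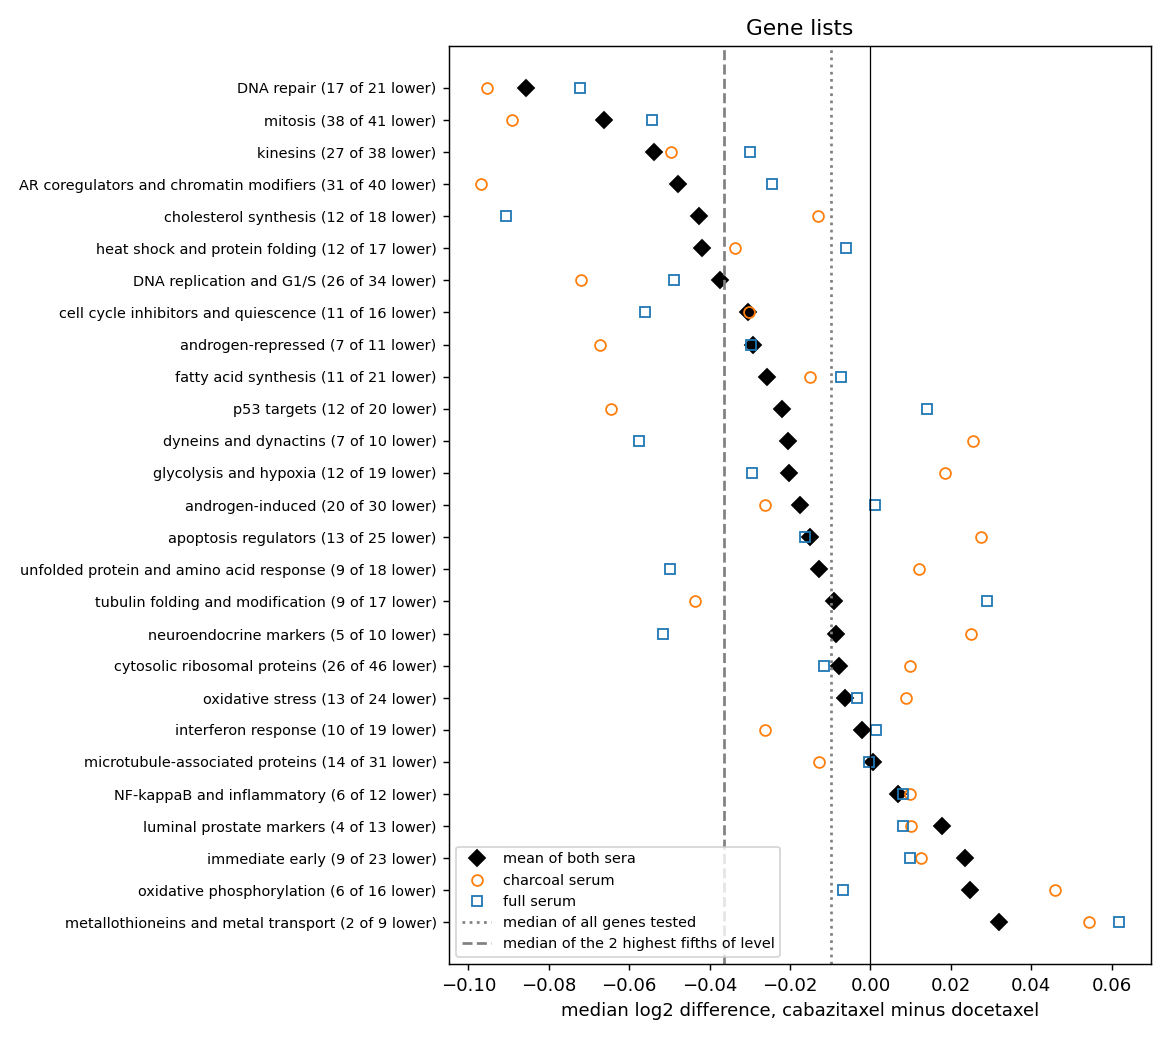
For each gene list with at least 9 tested genes (vertical), the median log2 difference is given (horizontal) in the mean of both sera, charcoal serum and full serum, with the medians of all genes (-0.0098) and of the 2 highest bins of level (-0.036) as lines. DNA repair (-0.086), mitosis (-0.066) and kinesins (-0.054) lie furthest to the left, and metallothioneins (0.032) furthest to the right.

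In charcoal serum alone, some named genes were those of the mean comparison and others were named in this serum only. BIK, a pro-apoptotic member of the BCL2 family, measured 6.18 and 5.92 with cabazitaxel, 5.72 and 5.66 with docetaxel and 5.63 and 5.57 with vehicle, a difference of 0.36. In full serum its 6 arrays lay between 5.65 and 5.73 and the difference was -0.025. STMN3 measured 5.77 and 5.84 with cabazitaxel and 5.38 and 5.36 with docetaxel in charcoal serum (0.43), and 5.59 and 5.49 against 5.64 and 5.44 in full serum (-0.0034). SBK3, a kinase gene, stood at 0.42, CDRT15 at 0.47 and GSTT2 at 0.35. Lower with cabazitaxel were KIF4A, ZNF445 (-0.39), ZNF17 (-0.36), TNRC6B (-0.34), a scaffold of microRNA silencing, and the phosphatase DUSP8 (-0.30). The smallest adjusted p by limma was 0.886 in this serum.

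In full serum the named genes were mostly others. GALNT2, which starts O-glycosylation of proteins, measured 6.46 and 6.61 with cabazitaxel and 6.88 and 6.92 with docetaxel (-0.37), and in charcoal serum 6.66 and 6.78 against 6.66 and 6.58 (0.10). A further transcript cluster of GALNT2 gave 0.048 in full serum, so its probe sets disagreed. AGPS, of ether lipid synthesis, stood at -0.36, the receptor gene GPR63 at -0.43, SOCS6 at -0.34 and the pseudogene YBX3P1 at -0.41. Higher with cabazitaxel were RALB, the methionine sulfoxide reductase MSRB1 (0.33), RBAK (0.32), a transcriptional repressor that binds RB1, CDRT15P2 (0.31) and the pseudogene APOOP5 (0.36). All had a limma adjusted p of 1.

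The drug differences of the sera, measured on separate arrays, were hardly correlated over genes, and no gene had passed the threshold in either serum. Across the 11105 genes the charcoal and full serum differences had a Pearson correlation of 0.0522 and a Spearman correlation of 0.0642, as a description over genes that are not independent. The sign was the same in 53.1% of genes. Of the 601 genes with an unadjusted p under 0.05 in charcoal serum 317 (52.7%) had the same sign in full serum, and of the 314 in full serum 164 (52.2%) had the same sign in charcoal serum. An unadjusted p under 0.05 in both sera was held by 23 of the 11105 genes, and only 13 of the 23 had the same sign in both. These 13 are 2.16% of the first list and 4.14% of the second. Over all genes, and for either sign, 2.83% had such a p in full serum and 5.41% in charcoal serum. The 13 were MIR3689F, SOCS6, ZKSCAN1, SRGAP1, LINC01002, MIR4470, HMGN5, STPG3, HCRT, UBR7, AK3, DDTL and ZNF227, several of them named for this count alone. HMGN5, a nucleosome-binding protein, stood at -0.19 and -0.26, and UBR7, a histone ubiquitin ligase, at -0.28 and -0.26.

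Tested directly, no gene's change in drug difference between the sera passed the threshold (limma, smallest adjusted p = 1). An unadjusted p under 0.05 was held by 402 genes (3.62%). The genes given here were named for the smallest unadjusted p in this test, a rule that favours opposite signs in the sera. The chemokine CCL21, at low levels throughout, stood at -0.35 in charcoal serum and 0.31 in full serum, a change of 0.66. FOCAD, which encodes focadhesin, stood at -0.24 and 0.20, and SAP30L, of a histone deacetylase complex, at -0.30 and 0.19. NWD1 changed by 0.41 and TRAPPC11, of the vesicle tethering complex TRAPP, by 0.40. In the other direction NIPAL3, a magnesium transporter relative, measured 7.68 and 7.61 with cabazitaxel and 7.31 and 7.37 with docetaxel in charcoal serum, and 7.15 and 7.15 against 7.41 and 7.33 in full serum, a change of -0.52. A further transcript cluster of NIPAL3 gave -0.034 and -0.083. PML, which builds nuclear bodies, changed by -0.47, GALNT2 by -0.47, SBK3 by -0.52 and YBX3P1 by -0.61.

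**Figure D5:**
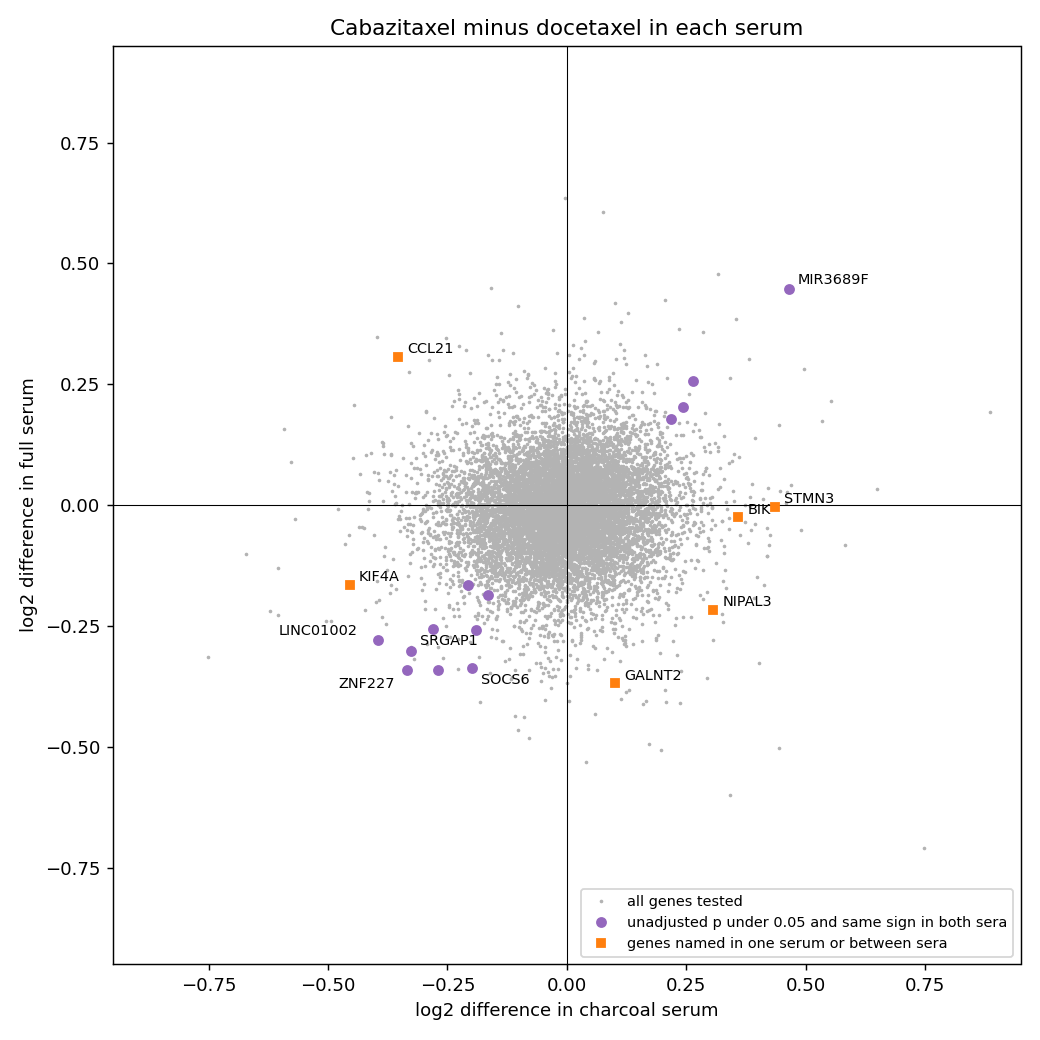
Each grey point is a gene's log2 difference between cabazitaxel and docetaxel in charcoal serum (horizontal) and in full serum (vertical). The cloud shows little tilt (r = 0.0522), the 13 purple points had an unadjusted p under 0.05 with the same sign in both sera, and the orange squares mark genes named in a single serum or for a change between sera.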

How the data were processed

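Human Gene 2.0 ST arrays (Affymetrix) measured amplified cDNA from 12 LNCaP samples. The authors deposited intensities per transcript cluster normalised with RMA, version not stated, per the submitters' processing notes. The values are linear, from 17.32 to 6307.3 with a median of 22.31, and 57.5% lie below 24, so low genes are compressed. Array medians were 22.19 to 22.43, and the number of arrays limits the precision.

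Values were converted to log2. The annotation gave 1 symbol to 15835 of 44629 clusters. The cluster with the highest mean was kept per gene, and 11105 of 14812 genes with at least 2 arrays above the overall median were tested. limma 3.58.1 in R 4.3.3 fitted 1 mean per group over 12 arrays (6 residual and 5.08 prior degrees of freedom). Contrasts were cabazitaxel minus docetaxel in each serum, their mean and their difference, for the 1 pair of compounds. Tests were two-sided with Benjamini-Hochberg adjustment over all genes, threshold 0.05, and intervals are 95%. The method was tested on simulated data.

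Members and gene lists were chosen with earlier results of these data known. Named genes were those with the smallest unadjusted p, 10 per direction in the mean and 5 elsewhere, leaving out small RNAs and uncharacterised symbols, the 3 smallest per list, and a fixed set of marker genes. Others are said to be chosen afterwards. The serum contrasts, the counts across sera and the alternatives for an unnamed cluster were added after seeing the data. RefSeq (GRCh38.p14) promoter entries were matched by symbol for 8504 genes and mature microRNA entries for 7 MIR3689 genes.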

Additional observations from a re-analysis of the deposited data

Results flagged for a closer look

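Of 13812 transcript clusters that the annotation at hand does not name with 1 symbol, cluster 16681891 stood apart because the difference between the drugs was not the same in the sera. Its levels in charcoal serum were 6.13 and 6.10 with cabazitaxel, 5.06 and 5.20 with docetaxel and 5.52 and 5.60 with vehicle, so each drug lay on its own side of vehicle. In full serum they were 5.55 and 5.57 with cabazitaxel, 5.65 and 5.71 with docetaxel and 5.73 and 5.67 with vehicle. The cabazitaxel minus docetaxel difference was 0.98 in charcoal serum (SE 0.0714, limma adjusted p = 0.0025 over 25724 clusters, 1.97-fold) and -0.12 in full serum, and the interaction was -1.10 (SE 0.101, adjusted p = 0.0216). It was the only cluster called in either comparison (0.00389% of those tested).

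In alternatives chosen after seeing the data, the charcoal difference kept its direction and ranged from 0.911 to 1.48. Its adjusted p by limma rose to 0.0629 and 0.0506 without the first or second charcoal cabazitaxel array, and was 0.0333 with the 8 taxane arrays alone. The interaction was less firm. Its adjusted p was 0.188 with the 8 taxane arrays alone, 0.228 after subtracting the assumed background of 16 and 0.0658 with a trended, robust prior. Leaving out 1 array gave 0.0494 to 0.249, under 0.05 only without the second charcoal docetaxel array. The cause of the difference was not tested.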

How the results depend on the processing

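No named gene passed the threshold in any comparison under any alternative run: other scalings, filters, offsets, array weights, a trended prior, cluster averaging, the 8 taxane arrays alone, the methods' t-test and leaving out each of the 12 arrays, each giving 0 genes. Over all 25724 clusters, named or not, 1 was called in charcoal serum and 1 between the sera, and 24970 clusters had intervals within 0.5 and 25665 within 1. Without the second charcoal cabazitaxel array, 866 genes had an unadjusted p under 0.05 in the mean of both sera, against 506, and 1006 in charcoal serum, against 601. With the other arrays left out in turn the lowest counts were 374 and 484. With no filter on low values the unadjusted counts were 497 in full serum, against 314, and 610 between the sera, against 402, and array weights gave 508 in full serum. Over all clusters they were 1079, 1313, 725 and 907. The replicate numbers are shared across groups, and the deviations of same-numbered samples correlated above 0 in 14 of 15 pairs of groups and above 0.1 in 10, from -0.049 to 0.33. As they did not pass 0.1 in every pair, the numbers were not taken as pairs. The fit with a replicate block called 0 genes, with a smallest limma adjusted p of 0.1 in the mean of both sera, against 0.244 without the block. Its unadjusted counts were 677 in the mean, 853 in charcoal serum, 413 in full serum and 538 between the sera. Of 30 gene lists, 11 kept the sign of their median under all alternatives run, among them mitosis, kinesins and DNA repair, and 19 did not. Of 159 named genes, 134 kept their sign. Few arrays and compressed low intensities limit what differences could be seen.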
